A study of Mus musculus with 2 samples.

Results

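The 9 genes described here encode secreted and cell-surface proteases of the plasminogen and matrix systems, a receptor and inhibitors, in mouse endothelial cells with and without a hairpin against Pspc1. They were chosen by symbol as 2 plasminogen activators (Plau and Plat), the urokinase receptor (Plaur), a membrane metalloproteinase (Mmp14), 2 Adamts proteases (Adamts1 and Adamts4) and 3 tissue inhibitors of metalloproteinases (Timp1, Timp2 and Timp3). All 9 were found among the 11405 genes of both deposited tables. The cells were MS1, an endothelial line from mouse pancreatic islets that was immortalised with a viral T antigen. The first group was infected with lentivirus carrying a short hairpin RNA (shRNA) against Pspc1, which encodes a paraspeckle RNA-binding protein, and is labelled as a knockdown. The second was infected with lentivirus carrying an shRNA against LacZ, a bacterial gene that mouse cells lack, and is labelled wild type. Both groups therefore carried a lentiviral hairpin, and each is 1 poly-A RNA library of 1 line, 2 libraries in all. No difference below has a replicate check and no p-value was computed. All statements compare these 2 libraries.

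Plasminogen activators cut the zymogen plasminogen to plasmin, a broad serine protease that degrades fibrin and matrix proteins and can activate other proteases. Urokinase (Plau) acts mainly at the cell surface, held by its receptor Plaur, while tissue plasminogen activator (Plat) acts mainly on fibrin and is released by endothelium. Metalloproteinases and Adamts proteases are zinc enzymes that cut collagens and proteoglycans, and they are inhibited by the Timp proteins.

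The libraries held 53518762 reads on the listed genes with the Pspc1 shRNA and 64009912 with the LacZ shRNA. The values are gene-level reads that the authors had divided by 1 factor per library, so they have no unit of their own. Over all listed genes they summed to 1054228 with the Pspc1 shRNA and 980876 with the LacZ shRNA. The targeted gene Pspc1 had a value of 3.78 in the Pspc1 shRNA library and 28.8 in the LacZ shRNA library, a log2 ratio of -2.77. Of 12 endothelial markers 10 were listed, with summed values of 6966 in the Pspc1 shRNA library and 6717 in the LacZ shRNA library, and Vwf and Cldn5 were not analysed here. Single markers differed in both directions, with log2 ratios of -0.94 for Kdr, -0.89 for Tek, -0.75 for Cdh5 and -0.49 for Erg, and of 0.59 for Esam, 0.36 for Egfl7 and 0.33 for Tie1, and their part in the results below was not tested. Of 6 fibroblast markers 1 was listed (Pdgfra, summed value 0.985 with the Pspc1 shRNA and 1.15 with the LacZ shRNA), and of 7 smooth muscle and pericyte markers 1 (Pdgfrb, 2.38 and 0.72 in the same order). Of 6 leukocyte markers 2 were listed (summed value 125.0 with the Pspc1 shRNA and 103.7 with the LacZ shRNA, nearly all from the lysosomal gene Cd68), of 4 epithelial markers 1 (Krt18, 36.9 and 23.9 in the same order), and of 5 islet hormone genes none.

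The stretches just before the start of a gene hold much of its promoter, and the RefSeq promoter table (build GRCm38.p6, the patched form of mm10) held one for 6 of the 9 genes, all but Plau, Plat and Adamts4. The 250 bases before the start are printed for 4 of them, 5′ to 3′ on the strand of the gene. Timp1 and Mmp14 are shown as 1 inhibitor and 1 protease with similar log2 ratios between the libraries as deposited (0.265 and 0.302). Timp3, whose window is not printed, was closer to Mmp14 (0.298), and Timp1 inhibits the Mmp14 protease poorly. After a correction for length and base composition, given below, Timp1 was at 0.06 and Mmp14 at 0.29. Plaur and Adamts1 are shown because each holds a motif that the other 5 windows lack. Capitals mark the GC box GGGCGG or its reverse complement, the AP-1 motif TGANTCA and the TATA box TATAAA, each searched on both strands.
Timp1, chrX:20869916-20870165, plus strand: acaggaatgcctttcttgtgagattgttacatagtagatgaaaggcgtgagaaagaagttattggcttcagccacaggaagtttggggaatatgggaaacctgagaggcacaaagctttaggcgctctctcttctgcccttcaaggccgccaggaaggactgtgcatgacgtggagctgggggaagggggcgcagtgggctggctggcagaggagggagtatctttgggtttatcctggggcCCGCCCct
Mmp14, chr14:54431348-54431597, plus strand: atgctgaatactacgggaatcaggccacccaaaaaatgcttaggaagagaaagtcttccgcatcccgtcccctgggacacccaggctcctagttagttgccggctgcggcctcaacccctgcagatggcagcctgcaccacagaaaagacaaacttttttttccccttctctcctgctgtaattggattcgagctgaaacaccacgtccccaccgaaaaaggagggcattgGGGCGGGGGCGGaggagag
Plaur, chr7:24462233-24462482, plus strand: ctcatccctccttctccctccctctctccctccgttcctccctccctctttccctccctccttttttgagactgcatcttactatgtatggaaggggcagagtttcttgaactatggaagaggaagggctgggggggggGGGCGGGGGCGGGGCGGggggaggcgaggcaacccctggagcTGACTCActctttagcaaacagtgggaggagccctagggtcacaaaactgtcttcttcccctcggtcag
Adamts1, chr16:85803114-85803363, minus strand: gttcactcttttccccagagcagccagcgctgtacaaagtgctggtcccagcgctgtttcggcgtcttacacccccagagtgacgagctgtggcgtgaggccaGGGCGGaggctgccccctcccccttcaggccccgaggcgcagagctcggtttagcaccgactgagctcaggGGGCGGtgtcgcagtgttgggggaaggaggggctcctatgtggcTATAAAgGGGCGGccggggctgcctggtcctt

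The GC box, bound by Sp1-family factors, was found in 6 of the 6 windows and in 32.7% of the 32851 promoter windows of the same length. It occurred 3 times each in Adamts1 and Plaur, with 2 matches sharing a base in Plaur, 2 times in Mmp14 and 1 time each in Timp1, Timp2 and Timp3. The CCAAT box (CCAAT) was found in Mmp14, Timp1 and Timp2, and in 33.8% of all windows, and in Mmp14 1 of its 2 matches shared a base with a GC box. The TATA box was found in Adamts1 only, 32 bases before the start, against 12.4% of all windows. The AP-1 motif was found in Plaur only, 69 bases before the start, against 6.75% of all windows. The GC content of the 6 windows ran from 54.4% in Timp1 to 68.0% in Timp2, against a median of 52.4% over all windows. Starts here are those of RefSeq, and they can differ from the gene spans given below. The Timp2 window (118355412 to 118355661) lies inside the span of Timp2, and the Timp3 window (86300162 to 86300411) runs past the start of Timp3 given there. These motif matches describe letters, and no binding was measured.

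The 9 genes differed widely in level. Measured as value per kilobase (kb) of merged exons, Plau was the most abundant in both libraries, with 490.7 per kb in the Pspc1 shRNA library and 655.0 per kb in the LacZ shRNA library. Plaur followed, with 344.4 per kb with the Pspc1 shRNA and 298.6 per kb with the LacZ shRNA. Timp1 (174.6 per kb with the Pspc1 shRNA, 145.2 with the LacZ shRNA) and Timp2 (134.9 and 103.9 in the same order) came next in both libraries. These 4 genes lay high among all listed genes on this scale, at percentiles 95.8 to 98.9 in the Pspc1 shRNA library and 94.9 to 99.4 in the LacZ shRNA library. The other 5 formed a lower tier, from 8.32 per kb (Adamts4) to 24.4 per kb (Plat) with the Pspc1 shRNA and from 8.44 per kb (Timp3) to 17.3 per kb (Mmp14) with the LacZ shRNA. Within that tier the order depended on the library, and Timp3 and Adamts4 changed places at the bottom. It also depended on the length used, since Plat, Mmp14 and Timp3 have merged exons of 6241, 5960 and 8144 bases but longest annotated transcripts of 4042, 3238 and 4722 bases. Per kb of longest transcript, Mmp14 stood above Plat in both libraries, at 39.2 against 37.7 with the Pspc1 shRNA and 31.8 against 26.5 with the LacZ shRNA. Reads of Plau made up 36.0% of all reads of the 9 genes in the Pspc1 shRNA library and 46.9% in the LacZ shRNA library.

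**Figure D1:**
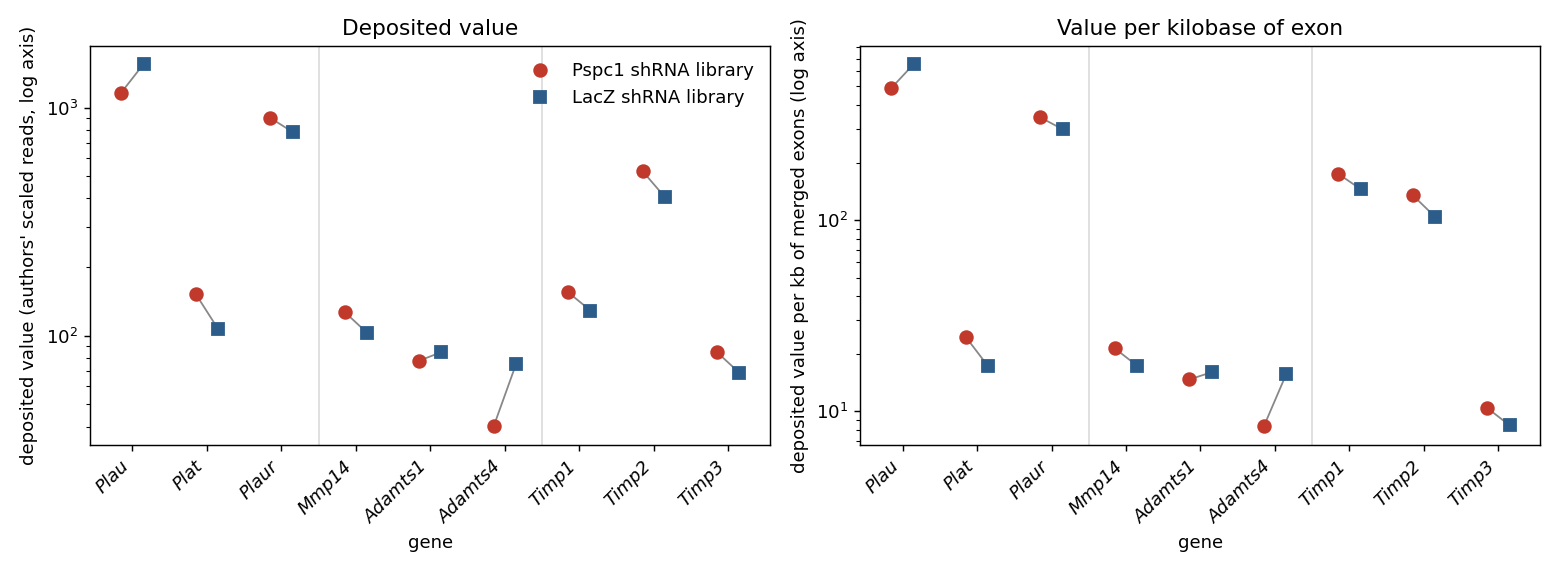
Values of the 9 genes in the Pspc1 shRNA library (red circles) and the LacZ shRNA library (blue squares), as deposited (left) and per kb of merged exons (right), both on log axes, with a grey line joining the values of a gene. Plau, Plat and Plaur stand left, the proteases Mmp14, Adamts1 and Adamts4 in the middle and the Timp genes right, and per kb Plau, Plaur, Timp1 and Timp2 lie above the other 5 genes in both libraries.

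All 9 genes differed by less than 2-fold between the libraries, and they differed in both directions. A log2 ratio here is that of the Pspc1 shRNA value over the LacZ shRNA value, with 0.5 added to each. It was above 0 for 6 of the 9 genes and below 0 for 3, where 60.1% of the 3629 listed genes whose 2 values averaged 50 or more were above 0. The median log2 ratio was 0.27 over the 9 genes and 0.07 over those 3629 genes. Between the lower and upper quartile of those genes (-0.12 and 0.24), which enclose 50% of them, lay 1 of the 9. The central 95% of the 3629 genes (-0.69 to 0.65) held 8 of the 9. All 9 genes had a mean of at least 50. None of the 9 was at least 1.5-fold higher (background 3.39% of the 3629 genes), and 1 of the 9, Adamts4, was at least 1.5-fold lower (background 3.89%). None reached 2-fold in either direction, where 0.551% of the 3629 genes were at least 2-fold higher and 0.937% at least 2-fold lower. The split of the background depended on the scaling, since 123 genes were at least 1.5-fold higher and 141 lower as deposited, but 74 and 206 with scaling by total reads and 159 and 111 with median-of-ratios scaling. With 9 genes these shares are too coarse to set the group apart from the background. Each value rested on 2032 to 101178 reads, and the 95% counting intervals of the 9 ratios were 0.03 to 0.15 log2 wide. Those intervals cover counting error only, and none of the 9 included a log2 ratio of 0.

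**Figure D2:**
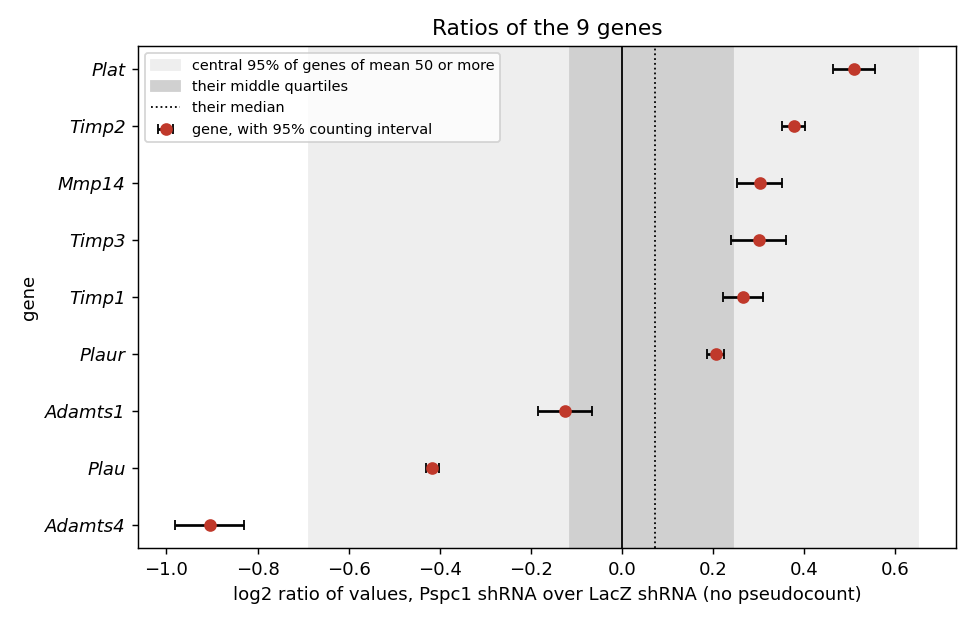
Log2 ratios without pseudocount (Pspc1 shRNA over LacZ shRNA) of the 9 genes, with 95% counting intervals that hold no spread between cultures. The light band holds the central 95% of the 3629 genes of mean 50 or more (-0.69 to 0.65), the dark band their middle quartiles (-0.12 to 0.24) and the dotted line their median, and Adamts4 is the only 1 of the 9 outside the light band.

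The 2 plasminogen activators differed in opposite directions. Urokinase, Plau (ENSMUSG00000021822, mm10 chromosome 14, 20836660 to 20843385, plus strand, 11 merged exons), had a value of 1162 in the Pspc1 shRNA library and 1550 in the LacZ shRNA library, 25.1% lower. Its log2 ratio of -0.42 (counting interval -0.43 to -0.40) was lower than that of 3365 of the 3629 genes. Tissue plasminogen activator, Plat (ENSMUSG00000031538, mm10 chromosome 8, 22757727 to 22782844, plus strand, 13 merged exons), had 152.4 in the Pspc1 shRNA library and 107.1 in the LacZ shRNA library, 42.3% higher. Its log2 ratio of 0.51 (0.46 to 0.56) was the highest of the 9, and 188 of the 3629 genes had a higher one. Summed per kb, the 2 activators came to 515.2 in the Pspc1 shRNA library and 672.2 in the LacZ shRNA library, nearly all of it Plau. In bulk RNA, fewer expressing cells and less RNA per cell cannot be told apart.

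The receptor had a higher value in the Pspc1 shRNA library. Plaur (ENSMUSG00000046223, mm10 chromosome 7, 24462484 to 24475968, plus strand), the anchor of urokinase at the membrane, had 901.2 in the Pspc1 shRNA library and 781.4 in the LacZ shRNA library, a log2 ratio of 0.21 (0.19 to 0.22). It was the only 1 of the 9 genes between the lower and upper quartile of the 3629 genes, of which 1091 had a higher ratio.

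Ratios between genes within a library do not depend on how the libraries were scaled. Per exonic length, the ratio of Plat to Plau was 0.0498 with the Pspc1 shRNA and 0.0262 with the LacZ shRNA, a 1.90-fold difference (1.84 to 1.97). The ratio of Plaur to Plau was 0.702 with the Pspc1 shRNA and 0.456 with the LacZ shRNA, a 1.54-fold difference (1.51 to 1.56).

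As deposited, Mmp14 and the 3 Timp genes had similar log2 ratios, with modestly higher values in the Pspc1 shRNA library. Mmp14 (ENSMUSG00000000957, mm10 chromosome 14, 54431612 to 54445364, plus strand) encodes MT1-MMP, a membrane collagenase that activates proMMP2, and had 127.0 in the Pspc1 shRNA library and 103.0 in the LacZ shRNA library. Its log2 ratio was 0.30 (0.25 to 0.35). Timp2 (ENSMUSG00000017466, mm10 chromosome 11, 118301069 to 118355740, minus strand), which inhibits MT1-MMP and also takes part in its activation of proMMP2, had 525.7 in the Pspc1 shRNA library and 404.8 in the LacZ shRNA library, a log2 ratio of 0.38 (0.35 to 0.40). Timp1 (ENSMUSG00000001131, mm10 chromosome X, 20870166 to 20874735, plus strand), which inhibits most soluble metalloproteinases but MT1-MMP poorly, had 155.0 with the Pspc1 shRNA and 128.9 with the LacZ shRNA, a log2 ratio of 0.27 (0.22 to 0.31). Timp3 (ENSMUSG00000020044, mm10 chromosome 10, 86300372 to 86349506, plus strand), the matrix-bound inhibitor that also blocks Adam and Adamts proteases, had 84.6 with the Pspc1 shRNA and 68.7 with the LacZ shRNA, a log2 ratio of 0.30 (0.24 to 0.36). These 4 log2 ratios lay within 0.11 of each other, in a range that held 400 of the 3629 genes (11.0%).

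As deposited, the Timp genes kept nearly the same ratio to Mmp14 in both libraries. For Timp1 and Timp3 this near equality was not kept after the correction for length and base composition given below. Per exonic length the ratio of Timp1 to Mmp14 was 8.19 in the Pspc1 shRNA library and 8.40 in the LacZ shRNA library, 0.975 times as large (0.931 to 1.02). That of Timp3 to Mmp14 was 0.487 with the Pspc1 shRNA and 0.488 with the LacZ shRNA, 0.998 times as large (0.945 to 1.05). For Timp2 over Mmp14 the ratios were 6.33 with the Pspc1 shRNA and 6.01 with the LacZ shRNA, a 1.05-fold difference (1.01 to 1.09). The 3 Timp genes summed to 319.9 per kb in the Pspc1 shRNA library and 257.5 per kb in the LacZ shRNA library. Timp1 and Timp3 lie inside the synapsin genes Syn1 and Syn3 on the opposite strand, and 1733 of the 8144 exonic bases of Timp3 overlap exons of Syn3, which was not analysed here. The labels state no strand-marking kit, so reads of genes that overlap on opposite strands cannot be told apart.

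**Figure D3:**
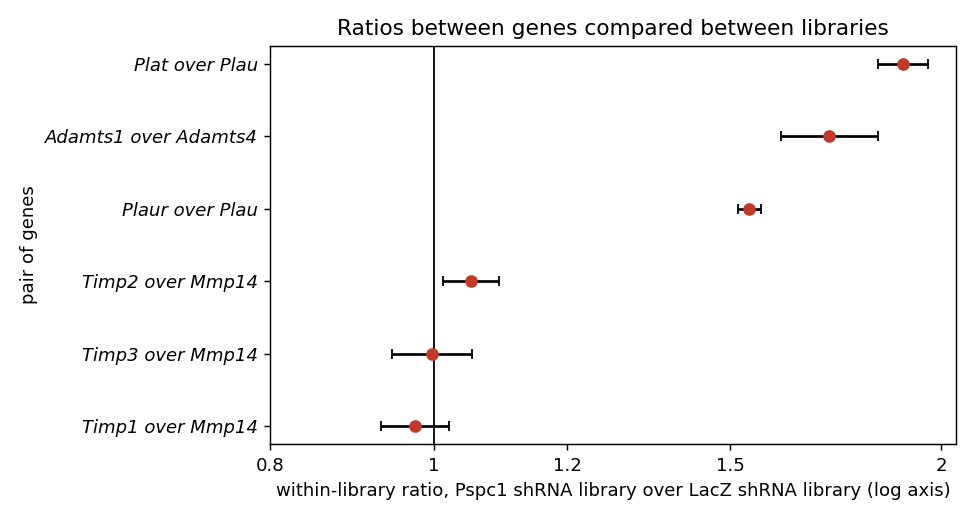
Ratio of 2 genes within a library, given as the Pspc1 shRNA library's ratio over the LacZ shRNA library's (log axis), with 95% counting intervals, for the 6 pairs compared. The 3 ratios of Timp to Mmp14 lie near 1, while Plaur over Plau, Adamts1 over Adamts4 and Plat over Plau lie at 1.54, 1.72 and 1.90. No ratio shown was corrected for how log2 ratios follow length and base composition.

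The 2 Adamts proteases had lower values in the Pspc1 shRNA library, by different amounts. Adamts4 (ENSMUSG00000006403, mm10 chromosome 1, 171250421 to 171260637, plus strand), an aggrecanase that also cuts versican, had 40.0 in the Pspc1 shRNA library and 75.0 in the LacZ shRNA library, 1.87-fold lower. Its log2 ratio of -0.90 (counting interval without pseudocount -0.98 to -0.83) was undercut by 47 of the 3629 genes. Adamts1 (ENSMUSG00000022893, mm10 chromosome 16, 85793827 to 85803113, minus strand), a versican-cutting protease that also binds VEGF, had 77.7 in the Pspc1 shRNA library and 84.8 in the LacZ shRNA library, a log2 ratio of -0.12 (-0.18 to -0.07). Per exonic length the ratio of Adamts1 to Adamts4 was 1.76 in the Pspc1 shRNA library and 1.03 in the LacZ shRNA library, a 1.72-fold difference (1.61 to 1.83).

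The log2 ratio of all genes also followed length and base composition, and 3 of the 9 genes moved by more than 1.5 times when both were adjusted for. Over 5889 genes of mean 20 or more, the log2 ratio had a Spearman's rho of -0.32 against length and of 0.31 against GC content, a description in which all genes share the same 2 libraries. After a correction for both by a smooth fit, the log2 ratio of Timp1, whose 888 exonic bases are the fewest of the 9, was 0.06. That of Plaur was 0.10. Those of Timp3 (0.52) and Plat (0.64), the genes with the longest merged exons, were higher, and Plat then passed 1.5-fold. Adamts4 (-0.94) and Plau (-0.45) changed little. The near-equal ratios of Timp1, Timp3 and Mmp14 (0.29 after correction) were therefore not kept. The part of length and base composition in these differences was not tested. Scaling by total reads moved 5 of the 9 genes by more than 1.5 times, to log2 ratios of 0.10 for Plaur, 0.16 for Timp1, 0.19 for Timp3, 0.20 for Mmp14 and -0.23 for Adamts1. Adamts1 was at -0.07 with median-of-ratios scaling and at -0.08 with a trimmed mean of M values.

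**Figure D4:**
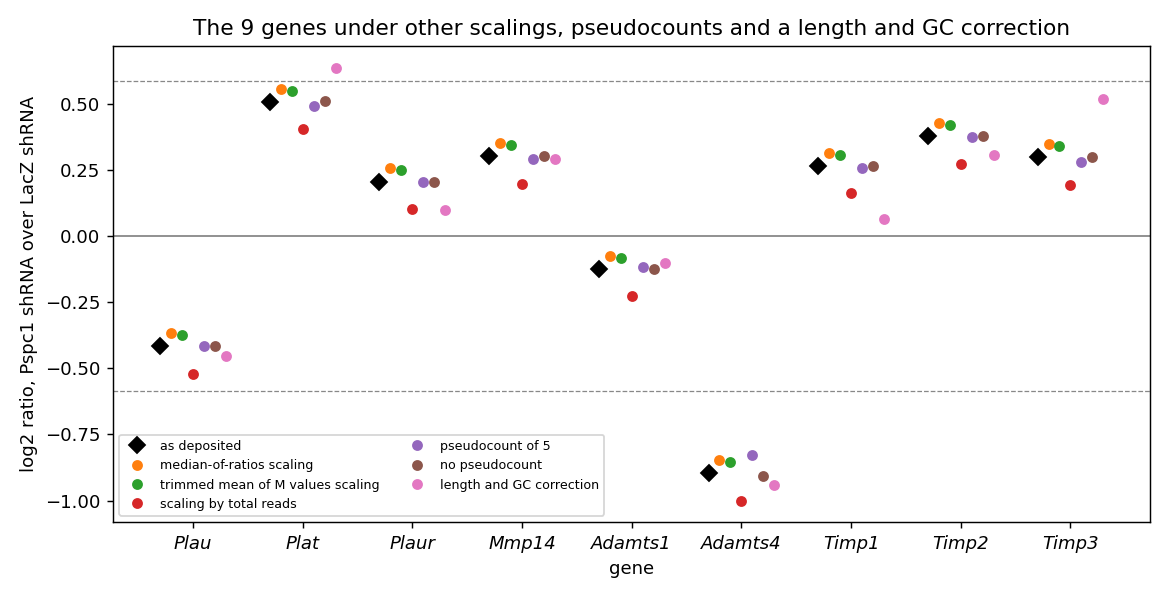
Log2 ratios of the 9 genes (Pspc1 shRNA over LacZ shRNA) as deposited (black diamonds) and under 3 other scalings, 2 other pseudocounts and a correction for length and GC content, with dashed lines at 1.5-fold. Every gene keeps its sign under these 6 alternatives, of which only the length and GC correction could reverse one. Adamts4 stays beyond the lower line, and Plat passes the upper line with the length and GC correction only.

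Among the other genes of the plasminogen system, 15 of 31 were listed, 8 with a log2 ratio above 0 and 7 below, where 5153 of all 11405 listed genes, whatever their level, were above 0. No gene was past 1.5-fold among the 10 of these 15 whose mean reached 50. Annexin A2 and its partner S100a10, which hold plasminogen and Plat at the endothelial surface, had slightly higher values, with 2001 in the Pspc1 shRNA library and 1568 in the LacZ shRNA library for Anxa2 and 652.3 and 594.5 in the same order for S100a10. Lrp1, an endocytic receptor that clears complexes of activator and inhibitor, had 9.06 with the Pspc1 shRNA and 16.9 with the LacZ shRNA, a log2 ratio of -0.86, and was below the mean of 50 that the counts ask for. With 17717 exonic bases, Lrp1 was at -0.58 after the correction for length and base composition. The most abundant gene of that list per length was Procr, the endothelial protein C receptor, with values of 3484 in the Pspc1 shRNA library and 3294 in the LacZ shRNA library. Serpine2 was not analysed here. The median log2 ratio over the 10 of these genes with a mean of 20 or more was 0.11, against 0.04 over all 5892 such genes.

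Other metalloproteinase genes had low values in both libraries. Of 20 further Mmp genes 6 were listed, 3 above and 3 below a log2 ratio of 0, and none had a mean of 50. The most abundant was Mmp2, the gelatinase whose proenzyme Mmp14 activates, with values of 22.9 in the Pspc1 shRNA library and 19.6 in the LacZ shRNA library. Of 32 further Adam and Adamts genes 14 were listed, 5 above 0 and 9 below, with a median of -0.26 over the 6 genes of mean 20 or more. Only 2 of the 14 had the mean of 50 that the counts ask for, and neither was past 1.5-fold. Below that mean, the largest differences were those of Adam12 (10.3 with the Pspc1 shRNA, 26.1 with the LacZ shRNA), Adam10 (9.40 and 19.0 in the same order) and Adam17 (16.9 and 29.5), named after their values were seen. Adam15, a membrane protease of endothelium and the most abundant of that list, had 295.8 in the Pspc1 shRNA library and 239.1 in the LacZ shRNA library. Of 20 further inhibitors and convertases 11 were listed, 6 above 0 and 5 below, with a median of 0.27 over the 7 genes of mean 20 or more. No gene was past 1.5-fold among the 5 of these 11 whose mean reached 50, while the lower-valued Tfpi2, Papln and Pcsk6, named after their values were seen, had log2 ratios of -1.08, -0.82 and 0.72. Serpinh1, the collagen chaperone HSP47, led that list with 2334 in the Pspc1 shRNA library and 1675 in the LacZ shRNA library. Reck, a membrane-anchored inhibitor of metalloproteinases, had 4.39 with the Pspc1 shRNA and 6.28 with the LacZ shRNA (223 and 410 reads). It was below the mean of 50 that the counts ask for.

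Genes of matrix proteins and other proteins that these enzymes cut ran over a wider range of ratios than the 9 genes. The list was chosen with earlier results of these data known and holds more genes, so no conclusion is drawn from its range. Of 26 substrate genes 15 were listed, all of mean 20 or more, 6 above 0 and 9 below. Their median log2 ratio was -0.25, where 3239 of all 5892 genes of that mean were above 0 and the median was 0.04. These medians were not corrected for length and base composition. Of the 12 substrate genes with a mean of at least 50, 2 were at least 1.5-fold higher and 4 at least 1.5-fold lower. Over all 3629 genes of that mean the shares were 3.39% and 3.89%. The proteoglycan Bgn had 115.2 in the Pspc1 shRNA library and 23.9 in the LacZ shRNA library, and the basement membrane linker Nid1 1302 and 563.8 in the same order. The collagen chain Col4a2 had 412.5 with the Pspc1 shRNA and 1020 with the LacZ shRNA, and fibronectin, Fn1, 317.1 and 639.3 in the same order. After the correction for length and base composition, Fn1 was at a log2 ratio of -0.81 (-1.01 as deposited) and Col4a2 at -1.24 (-1.31). Bgn was then at 2.27 (2.24 as deposited) and Nid1 at 1.32 (1.21). Cd44, whose -0.25 was the list median as deposited, was then at -0.06. Thbs1, thrombospondin 1, the most abundant substrate per length, had 2465 with the Pspc1 shRNA and 1715 with the LacZ shRNA. Of 20 cathepsin and other matrix enzyme genes 12 were listed, 6 above 0 and 6 below, with a median of 0.03 over 10 genes. Ctsh, the lysosomal protease cathepsin H, had 58.1 in the Pspc1 shRNA library and 118.3 in the LacZ shRNA library. It was the only 1 past 1.5-fold among the 10 of mean 50 or more (background 3.89% lower). Ctsd, cathepsin D and the most abundant of the list per length, had 627.0 with the Pspc1 shRNA and 420.5 with the LacZ shRNA.

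**Figure D5:**
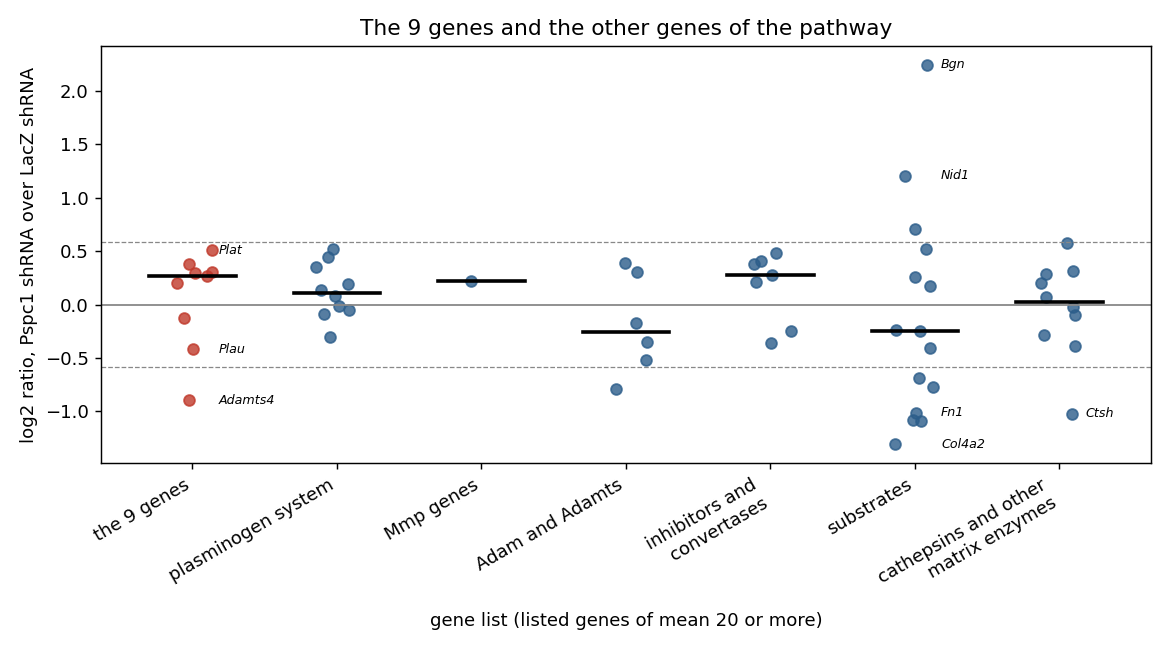
Log2 ratios (Pspc1 shRNA over LacZ shRNA) of the 9 genes (red) and of the listed genes of mean 20 or more in 6 lists of related genes (blue), 1 point per gene, with the list median as a black bar and dashed lines at 1.5-fold (genes of mean under 50 beyond them were not counted). The 9 genes lie between -0.90 (Adamts4) and 0.51 (Plat), while the substrate genes run from -1.31 (Col4a2) to 2.24 (Bgn). The lists were chosen with earlier results of these data known, so their ranges are a description only. No ratio or median shown was corrected for how log2 ratios follow length and base composition.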

How the data were processed

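Poly-A RNA of MS1 cells was sequenced in 2 libraries, grouped by the treatment label. Tools named per the submitters' processing notes, with no roles given, were featureCounts 2.0.0, HISAT2 2.1.0, DESeq 1.39.0 and Trimmomatic 0.39, and the build was mm10. The sources used here do not give the annotation, any filter on low values or the way of scaling. Per gene, the authors deposited a signal, 100% of whose values were whole multiples of 1 step per library within 0.01 reads (0.0197 with the Pspc1 shRNA, 0.0153 with the LacZ shRNA), and dividing by the step gave reads.

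Values were used as deposited. A pseudocount of 0.5 in log2 ratios understates the change of low genes. Counts past a fold (1.5 or 2) need a mean value of 50. Intervals (95%, exact: conditional binomial for a gene, conditional odds ratio for a pair) cover counting error only, since reads carry no molecular identifiers.

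Named are all 9 genes, and from each list of related genes those past 1.5-fold (at most 4) and the most abundant per length, with Serpine2, Reck, Anxa2, S100a10 and Lrp1. A gene that this rule would name and the planned ratios with it are not reported here. Genes and lists were chosen with earlier results of these data known. Symbols matched 11399 of 11405 identifiers. Lengths, GC content and overlaps came from GENCODE M21 (same build). Python 3.11.15, numpy 2.4.6, pandas 2.3.3, scipy 1.17.1 and matplotlib 3.10.9 were used, and the steps were tested on simulated reads. Alternatives were 3 scalings, 2 pseudocounts, 2 minimum means and a correction for length and GC content.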

Additional observations from a re-analysis of the deposited data

How the results depend on the processing

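No paired analysis was possible because each group holds 1 library, and no library could be left out. Under 6 alternatives (3 scalings, 2 pseudocounts, length and GC correction) none of the 9 log2 ratios changed sign. The 3 scalings shifted all genes alike, by between -0.10 and 0.05 log2 at the median, too little to reverse any of the 9. A pseudocount added to both values cannot reverse a sign. Only the length and GC correction could, and there Timp1 stood at 0.06, below the median of 0.07 over the 3629 genes. Adamts4 stayed at least 1.5-fold lower, closest to 0 at -0.83 with a pseudocount of 5. With scaling by total reads the median of the 3629 genes shifted by -0.10 log2, and relative to the median as deposited Adamts4 lay at -0.97, Plau at -0.49 and Plat at 0.43. The median of the 9 genes, 0.27 as deposited, was 0.32 with median-of-ratios scaling, 0.16 with scaling by total reads and 0.10 with the length and GC correction, where 1 gene (Plat) was at least 1.5-fold higher in place of 0. Over all genes, 123 were at least 1.5-fold higher and 141 lower as deposited. Scaling by total reads gave 74 higher and 206 lower, median-of-ratios scaling 159 and 111, a trimmed mean of M values 152 and 118, and the length and GC correction 121 and 99. With a minimum mean of 20, more genes entered, with 225 higher and 325 lower at 1.5-fold and 50 higher and 71 lower at 2-fold. With a minimum mean of 100, fewer entered, with 74 higher and 63 lower at 1.5-fold and 12 higher and 16 lower at 2-fold. Restricting the 9 genes to a mean of at least 50 removed none. Level ratios between genes depend on the length used: per longest transcript, Timp1 over Mmp14 was 4.48 with the Pspc1 shRNA and 4.59 with the LacZ shRNA. With 1 library per group, spread between cultures was not measured.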
